A study of Mus musculus with 7 samples.

Results

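Kallikreins, clade B serpins and Spink inhibitors are 3 families of protease and inhibitor genes, many of them expressed in the epidermis. Members were chosen by gene symbol alone (Klk, Serpinb or Spink followed by a digit), and each was measured by 1 probe set, the brightest of those that the platform annotation assigns to that gene alone. The rule found 61 genes of the 22180 on the array, of which 24 were kallikreins, 25 clade B serpins and 12 Spink genes. They were measured on 1-colour arrays in 4 uninjured digits and in 3 blastemas, the cell masses that rebuild an amputated digit tip, taken 2 weeks after amputation. All mice were C57Bl/6, and no transgene or drug is named for either group. The labels give neither age nor sex, nor whether tissue was pooled, nor how much skin or nail came with each sample. The study is about Schwann cell precursors from nerves and their part in regrowth of the digit tip. The comparison used here asks how the genes of these 3 families differed between blastema and intact digit.

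Kallikreins are secreted trypsin-like or chymotrypsin-like serine proteases. In the upper epidermis they form a cascade, in which matriptase and KLK5 activate other kallikreins, and the active enzymes cut the desmosome proteins that hold cornified cells together, so that these cells are shed. The Spink5 product LEKTI, a secreted chain of Kazal-type inhibitor domains, restrains KLK5, KLK7 and KLK14, and its loss in humans causes Netherton syndrome, a disease of excessive shedding. Clade B serpins lack a classical secretion signal and act mostly inside cells, where they trap serine or cysteine proteases by an irreversible change of shape.

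Of the 61 genes, 7 were lower in the blastema and 0 were higher by limma at a Benjamini-Hochberg adjusted p of 0.05. They were the kallikreins Klk5 and Klk8, the inhibitors Spink5, Spink6 and Spink7 and the serpins Serpinb7 and Serpinb12. That is 11.5% of the members, against 9.64% of all genes called in either direction, 4.66% called lower and 4.98% called higher. The median log2 fold change of the 61 was -0.06, against -0.0054 over all genes. At an unadjusted p under 0.05 by limma there were 17 of the 61 members, against 5527 of all 22180 genes. The arrays of the groups did not overlap in 11 members (18% of them, against 21% of all genes), 10 with the blastema lower (10.6% of all genes) and 1 with it higher (10.4%). Scaling each array to 10 reference genes moved every fold change by -0.336 and gave 30 lower and 0 higher members. In that list 9 of the 10 differences were above 0 and 3 genes themselves rose, B2m (1.34 ± 0.22, SE), Gusb (0.89 ± 0.17) and Gapdh (0.31 ± 0.06). On omission of either blastema array 2 or 3 neither B2m nor Gusb passed, nor did Gusb on that of uninjured array 3 or 4. Gapdh, named after its value was seen, was not examined for omissions.

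**Figure D1:**
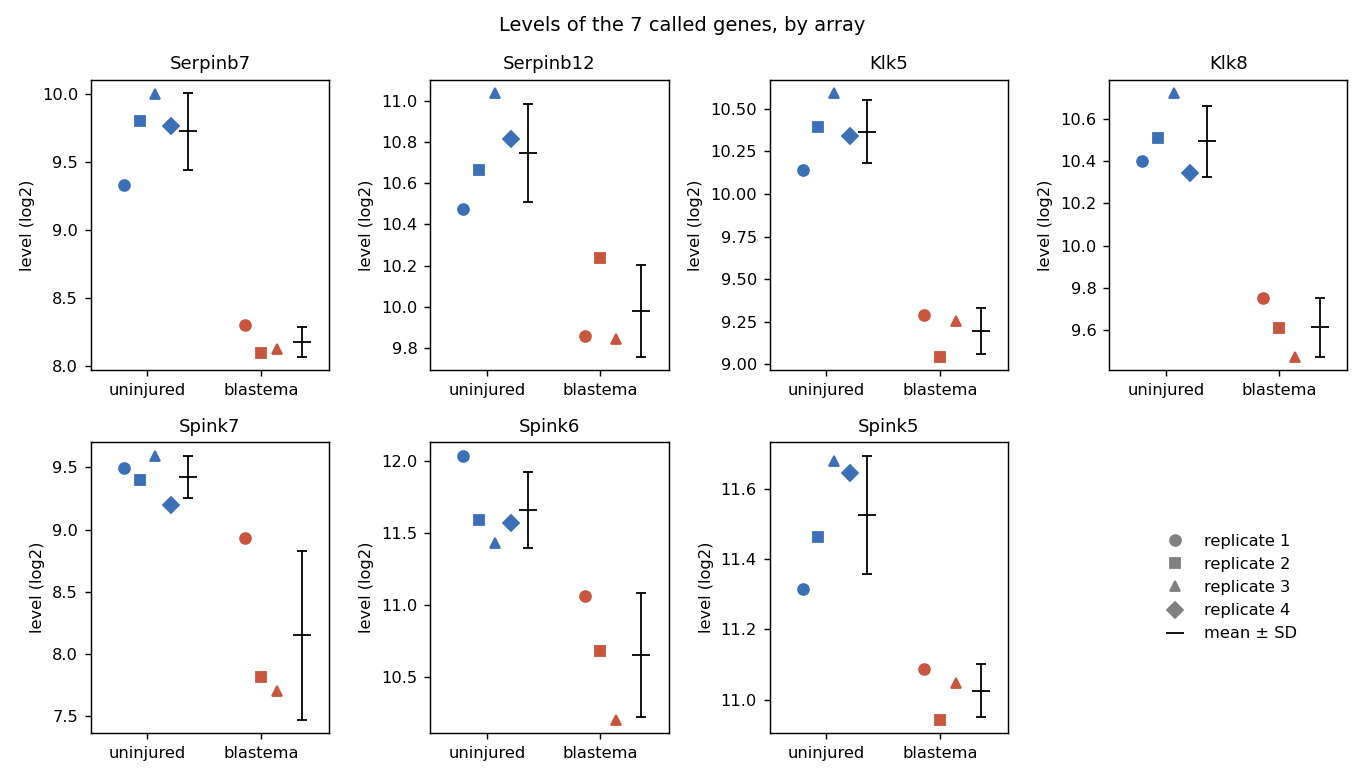
Log2 level of each of the 7 called genes on each array, with uninjured digits in blue (n = 4) and blastemas in red (n = 3), and black bars for the mean ± SD. Each panel has its own axis, which does not start at 0, and in each the blastema arrays all lie below the uninjured ones.

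Levels are on a log2 scale, so 1 unit is a doubling of signal, and levels of different genes cannot be ranked because their probes differ. The array carries no detection calls. The 95th percentile of the mean level of 1105 olfactory receptor genes, 5.52, was used in their place as a mark of background. By it 30 of the 61 members had no group mean above background, which leaves 31 with signal. The 7 arrays limit the precision, and their medians ran from 5.53 to 5.58. Uninjured array 1 and blastema array 1 stood apart from the others on the second axis of variation (24.77 and 15.78, against -13.59 to -3.18), which held 14.3% of the variance. Without both of them 6 of the 7 calls remained, and Serpinb12 was lost (log2 fold change -0.80, adjusted p = 0.0577). Keratinocyte markers had signal in both groups. Of 15 markers of differentiating keratinocytes, 8 fell and 0 rose (median -0.34), led by Krt2 (-2.69 ± 0.52, SE) and Lor (-0.87 ± 0.13), and all 15 had a mean above the background mark. Their mean level was 11.39 to 11.67 on the uninjured arrays and 10.99 to 11.09 on the blastema arrays. Of 9 basal markers 1 fell, Krt15 (-2.30 ± 0.48), and 1 rose, Bnc1 (0.56 ± 0.12), with a median of 0.07. Krt2 lost its call on omission of any of uninjured arrays 2 to 4 and of blastema array 2, and Krt15 and Bnc1 without any array except uninjured array 1. Bnc1 was also lost with reference gene scaling. The abundant keratin genes Krt1 (-0.17, 95% interval -0.37 to 0.03), Krt10 (-0.18, -0.35 to -0.02) and Krt14 (-0.08, -0.33 to 0.17), none of them called, were named after their values were seen. Markers of other cell types moved as well. Not every listed marker was measured. The counts cover 5 of 8 listed osteoblast markers, 7 of 8 fibroblast markers and 9 of 11 macrophage markers. They cover 9 of 10 basal markers and 14 of 15 nail and hair markers. Of 5 osteoblast markers 5 rose (median 3.44), led by Ibsp, the bone sialoprotein gene (5.73 ± 0.64, SE), and Col1a1 (3.48 ± 0.27). Of 7 fibroblast markers 5 rose (median 2.30), led by the collagen gene Col1a2 (3.35 ± 0.28), of 8 osteoclast markers 7 rose (median 1.06), led by Mmp9 (4.59 ± 0.32), and of 9 macrophage markers 5 rose (median 0.74), led by C1qb (1.23 ± 0.20), although the rise of C1qa (0.31) was smaller than the shift that reference gene scaling makes. The mean level of the osteoblast markers was 6.05 to 6.99 on the uninjured arrays and 9.53 to 10.02 on the blastema arrays, and that of the fibroblast markers 8.28 to 9.31 and 10.54 to 11.08. Of 14 sweat gland and duct markers 2 fell, Aqp5, a water channel gene (-1.11 ± 0.14), and Scgb1a1 (-0.84 ± 0.21), and of 14 nail and hair markers 1 fell, the hair keratin gene Krt35 (-1.28 ± 0.26). Scgb1a1 was lost on omission of any 1 array, and Krt35 on that of uninjured array 2 and of each of blastema arrays 2 and 3. In a whole tissue, fewer cells of a type and less RNA per cell cannot be told apart, and the part of a changed share of epidermis, glands, bone or connective tissue in the results below was not tested.

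The stretches upstream of the called genes are shown because these genes sit among neighbours of their own family, most of which were not called. RefSeq windows of GRCm38.p6 were found for 47 of the 61 members and for 4 of the 7 called genes. The 250 bases before the annotated start are printed for those 4, all on the plus strand: chr7:43842019-43842268 for Klk5, chr7:43797327-43797576 for Klk8, chr1:107422439-107422688 for Serpinb7 and chr1:106934199-106934448 for the first of 2 starts of Serpinb12. Capitals mark matches, on either strand, to any of 5 motifs. The motif of the AP-1 factors was searched as TGANTCA, and that of the grainyhead-like factors, which act in epidermal barrier genes, as AACCNGTT. The C/EBP motif was searched as TTGCNNAA. The TATA box, at which transcription starts are set in many tissue-specific genes, was searched as TATAAA. The GC box, common in promoters of broadly expressed genes, was searched as GGGCGG.
Klk5: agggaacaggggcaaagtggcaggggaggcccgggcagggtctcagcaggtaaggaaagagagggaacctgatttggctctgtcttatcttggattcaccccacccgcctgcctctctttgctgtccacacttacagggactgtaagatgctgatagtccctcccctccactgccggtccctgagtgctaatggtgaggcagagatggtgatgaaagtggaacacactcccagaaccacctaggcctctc
Klk8: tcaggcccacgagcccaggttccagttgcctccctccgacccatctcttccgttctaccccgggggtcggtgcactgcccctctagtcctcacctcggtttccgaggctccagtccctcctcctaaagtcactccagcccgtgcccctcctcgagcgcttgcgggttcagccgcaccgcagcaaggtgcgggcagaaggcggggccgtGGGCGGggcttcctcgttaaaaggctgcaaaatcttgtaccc
Serpinb7: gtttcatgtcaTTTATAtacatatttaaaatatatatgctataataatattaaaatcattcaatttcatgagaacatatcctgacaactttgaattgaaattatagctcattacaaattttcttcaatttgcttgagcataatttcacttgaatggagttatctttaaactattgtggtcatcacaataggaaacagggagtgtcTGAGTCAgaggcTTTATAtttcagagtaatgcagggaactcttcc
Serpinb12: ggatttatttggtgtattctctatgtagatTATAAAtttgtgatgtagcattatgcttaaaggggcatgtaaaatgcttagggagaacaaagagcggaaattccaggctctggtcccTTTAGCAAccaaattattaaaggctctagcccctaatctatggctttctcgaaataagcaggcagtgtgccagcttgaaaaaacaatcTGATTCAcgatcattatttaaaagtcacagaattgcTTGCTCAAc
The upstream stretch of Klk5 held none of the 5 motifs, and that of Klk8 held 1 GC box. Both printed serpin stretches held an AP-1 match that began 45 bases before the start. The bases G and C made up 56.8% of the Klk5 stretch and 65.2% of the Klk8 stretch, but 29.2% in Serpinb7 and 38% in Serpinb12, against a median of 52.4% over all 32851 windows.

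Among the kallikreins, 2 of 24 fell and 0 rose, with a median log2 fold change of -0.04. Klk5 encodes the trypsin-like protease at the head of the shedding cascade. Its level was 10.14, 10.39, 10.59 and 10.34 in uninjured digits and 9.29, 9.04 and 9.26 in blastemas. The groups lay apart by more than the spread within either. Klk5 fell by 1.17 ± 0.12 (SE), a 2.25-fold difference with a 95% interval of -1.44 to -0.90 on the log2 scale (adjusted p = 0.00273). Klk8 encodes neuropsin, a trypsin-like protease of the upper epidermis and of the hippocampus. It was at 10.40, 10.51, 10.72 and 10.34 in uninjured digits and at 9.75, 9.61 and 9.47 in blastemas. Again every blastema lay below every uninjured digit. Klk8 fell by 0.88 ± 0.11 (SE), or 1.84-fold (adjusted p = 0.0050). Klk5 passed in all 16 alternative settings and Klk8 in 15.

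The other 8 of the 10 skin kallikreins did not pass. Klk7, the chymotrypsin-like partner of Klk5 in shedding, was at 11.07, 11.15, 11.24 and 10.99 in uninjured digits and 11.03, 10.83 and 10.69 in blastemas. Only blastema array 1 reached into the uninjured range. The Klk7 difference was -0.26 (95% interval -0.50 to -0.03, adjusted p = 0.158). Klk11 showed groups that did not overlap, 9.15 to 9.47 in uninjured digits and 9.05, 8.81 and 8.66 in blastemas, with a difference of -0.39 ± 0.12 (SE, adjusted p = 0.0907). It passed without blastema array 1 (adjusted p = 0.0493) and with array weights (0.0429). Klk13 differed by -0.18 (-0.57 to 0.21) and Klk9 by -0.06 (-0.36 to 0.25), neither of which passed. For Klk12 (-0.09, -0.26 to 0.08) 5 of the 7 arrays held one and the same value, 6.44. In 13 members at least 3 arrays were equal to 5 digits, and how far this affects their spread was not tested.

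Klk14, Klk10 and Klk6 had higher means in the blastema, and none passed. Klk14 encodes another protease of shedding, and its level was 11.03, 10.37, 10.41 and 10.48 in uninjured digits against 11.26, 10.83 and 10.62 in blastemas. The overlap came from uninjured array 1 alone, and the difference was 0.33 (95% interval -0.14 to 0.81, adjusted p = 0.364). It was -0.0023 with reference gene scaling. Klk6, which encodes neurosin, was at 5.82, 5.58, 5.89 and 5.54 in uninjured digits, close to the background mark, and at 5.89, 6.11 and 7.06 in blastemas. Klk10 was at 8.002, 8.05, 8.32 and 7.97 in uninjured digits and at 8.001, 8.28 and 9.01 in blastemas. In both genes blastema array 3 was the high one, and the differences were 0.65 (0.03 to 1.27, adjusted p = 0.184) for Klk6 and 0.35 (-0.18 to 0.88, adjusted p = 0.394) for Klk10.

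Outside the skin group, Klk15 was 0.37 lower in mean (-0.88 to 0.15, adjusted p = 0.358) and Klk4, which encodes an enamel protease, 0.04 lower (-0.30 to 0.22, adjusted p = 0.849). The 12 genes of the Klk1 type, which include the classical tissue kallikrein Klk1 and its mouse-specific copies, held no call. Of them 11 had no mean above the background mark, and their median was 0.0084. These copies are near-identical in sequence, so their probe sets may share signal. The exception in level was the pseudogene Klk1b7-ps, at 7.33, 6.29, 6.05 and 6.83 in uninjured digits and 5.78, 4.81 and 6.29 in blastemas. Its groups overlapped, and the difference of -0.998 had an interval of -1.96 to -0.03 (adjusted p = 0.187).

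Of the 12 Spink genes 3 fell and 0 rose, with a median of -0.05. Spink5 was at 11.32, 11.46, 11.68 and 11.64 in uninjured digits and at 11.09, 10.94 and 11.05 in blastemas. The blastema arrays lay closer to each other than the uninjured ones did. Spink5 fell by 0.50 ± 0.10 (SE), or 1.41-fold (adjusted p = 0.0241). Spink6, which encodes a small single-domain inhibitor of kallikreins in skin, was at 12.04, 11.59, 11.43 and 11.57 in uninjured digits and at 11.06, 10.68 and 10.20 in blastemas. It fell by 1.01 ± 0.22 (SE), or 2.01-fold (adjusted p = 0.0314). Spink7, a Kazal-type inhibitor gene known from stratified epithelium of the oesophagus, was at 9.497, 9.40, 9.59 and 9.20 in uninjured digits and at 8.93, 7.82 and 7.71 in blastemas. Blastema array 1 lay between the other blastemas and the uninjured digits. The Spink7 fall was 1.27 ± 0.29 (SE), or 2.41-fold (adjusted p = 0.0353).

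The Spink calls are close to the threshold. Spink5 passed in 2 of the 7 omissions of 1 array, those of uninjured array 1 and of blastema array 1. Spink6 and Spink7 each passed in 1, that of blastema array 1. In the other omissions the adjusted p ran from 0.0586 to 0.096 for Spink5, from 0.0605 to 0.103 for Spink6 and from 0.073 to 0.132 for Spink7. In all 7 omissions the log2 fold change stayed below 0, from -0.57 to -0.45 for Spink5, from -1.22 to -0.79 for Spink6 and from -1.66 to -1.05 for Spink7. Of the other Spink genes, Spink12 had signal without a call, at 9.53, 9.29, 9.51 and 9.46 in uninjured digits and 9.57, 9.59 and 9.44 in blastemas. Its difference was 0.09, with an interval of -0.10 to 0.27 (adjusted p = 0.540), and -0.25 with reference gene scaling. Spink14 differed by -0.04 (-0.56 to 0.48). Spink1, Spink2, Spink4, Spink8, Spink10, Spink11 and Spink13 had no mean above the background mark, so their differences of -0.33 to 0.26 carry little information.

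Whether a protease and its inhibitor changed by different amounts was tested for Klk5, Klk7 and Klk14 against Spink5, as the difference of the log2 levels on each array. Klk5 minus Spink5 was -1.16 ± 0.11 (SD, n = 4) in uninjured digits and -1.83 ± 0.06 (SD, n = 3) in blastemas. The groups did not overlap, and Klk5 dropped 0.67 further than Spink5, with an exact two-sided permutation p = 0.0286, the smallest that 35 assignments of the arrays allow. Adjusted over the 3 comparisons, the exact p was 0.0857 and did not pass. Klk7 minus Spink5 rose in mean by 0.24 (exact permutation p = 0.143, adjusted p = 0.143) and Klk14 minus Spink5 by 0.83 (exact permutation p = 0.0857, adjusted p = 0.129), with overlapping groups in both. The design can reach an adjusted p of 0.0286 only if all 3 comparisons separate the groups. For Klk5 minus Spink5, an adjusted p under 0.05 required that another of the 3 comparisons also separate the groups. Klk5 minus Spink5 alone could not reach an adjusted p under 0.05, whatever its size, so its failure to pass carries no information.

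**Figure D2:**
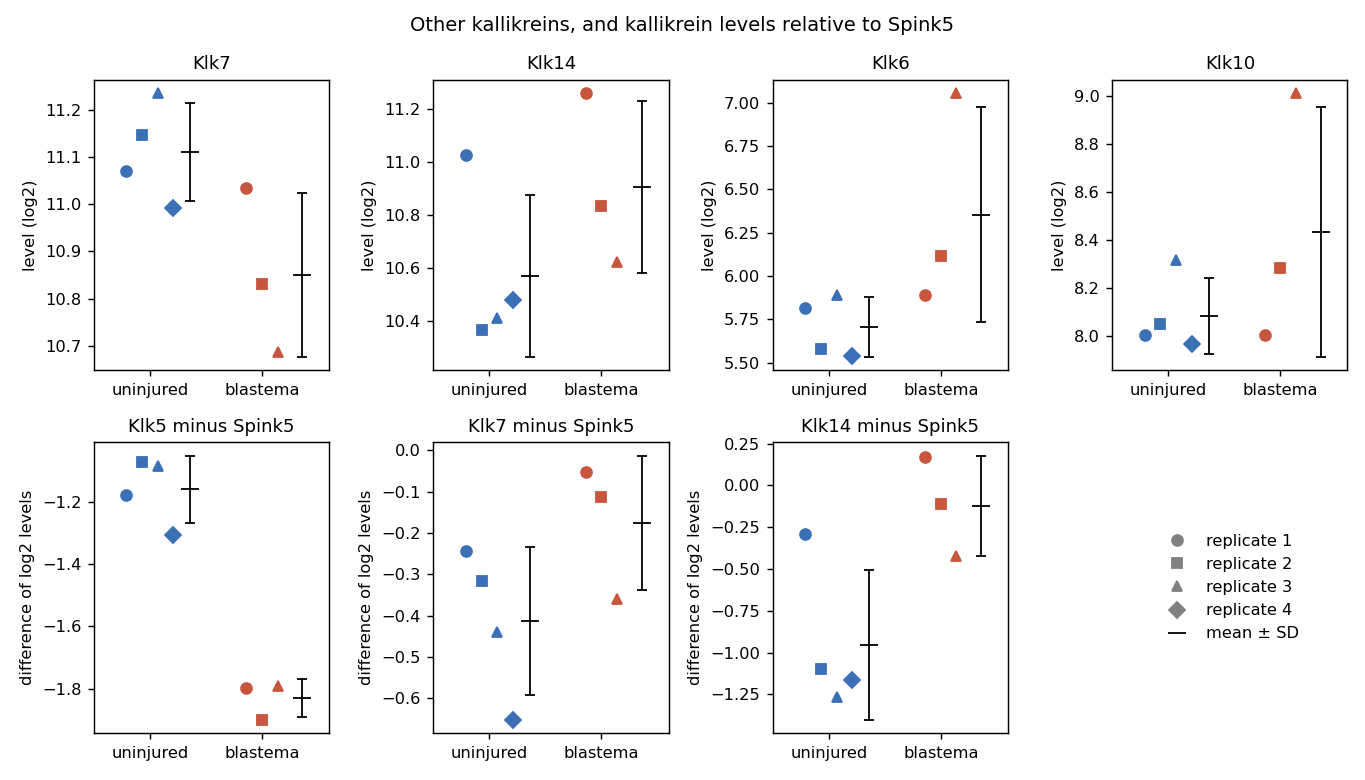
Upper row, log2 levels of 4 kallikreins that were not called, on each array. Lower row, the log2 level of Klk5, Klk7 or Klk14 minus that of Spink5 on the same array. Uninjured digits are blue (n = 4), blastemas red (n = 3), black bars are the mean ± SD, and axes differ between panels and do not start at 0. Only Klk5 minus Spink5 separates the groups, near -1.16 against -1.83.

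Among the clade B serpins, 2 of 25 fell and 0 rose, with a median of -0.14. Serpinb7 had the largest fall of the 61 members. SERPINB7 is made in the upper epidermis, and its loss in humans causes Nagashima-type palmoplantar keratosis, a thickening of the skin of palms and soles. Its level was 9.33, 9.80, 10.003 and 9.76 in uninjured digits and 8.31, 8.10 and 8.13 in blastemas. The nearest arrays of the groups were about 1 unit apart. Serpinb7 fell by 1.55 ± 0.15 (SE), or 2.92-fold, with an interval of -1.91 to -1.19 (adjusted p = 0.00262), and it passed in all 16 alternative settings. Serpinb12 encodes an inhibitor of trypsin-like proteases in epithelia. It was at 10.48, 10.66, 11.04 and 10.82 in uninjured digits and at 9.86, 10.24 and 9.85 in blastemas. Serpinb12 fell by 0.77 ± 0.15 (SE), or 1.70-fold (adjusted p = 0.0240). Its call was lost on omission of any of uninjured arrays 2, 3 and 4 and blastema arrays 1 and 3, with an adjusted p from 0.0556 to 0.105.

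Other epidermal serpins had lower means without passing. Serpinb8, which inhibits the proprotein convertase furin, was at 9.12, 9.04, 9.25 and 9.03 in uninjured digits and 8.86, 8.75 and 8.43 in blastemas. Its groups did not overlap, and the difference was -0.43 (95% interval -0.69 to -0.16, adjusted p = 0.0602). It passed when dim genes were left out (0.0391), with array weights (0.0387), with median scaling (0.0391) and without blastema array 1 (0.0434). Serpinb5, which encodes maspin, a serpin of epithelia that does not inhibit proteases in the classical way, lay at 11.42 to 11.72 in uninjured digits and at 11.35, 11.29 and 11.28 in blastemas, a difference of -0.27 (-0.45 to -0.08, adjusted p = 0.0874). It passed with array weights (0.0333) and without uninjured array 1 (0.0434).

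Serpinb2, which encodes the plasminogen activator inhibitor PAI-2 of keratinocytes and macrophages, was at 10.56, 10.54, 10.77 and 10.67 in uninjured digits. In blastemas it was at 10.14, 9.91 and 10.75. Blastema array 3 alone lay within the uninjured range, and without it Serpinb2 passed (log2 fold change -0.61, adjusted p = 0.0374), while over all arrays the difference was -0.36 (-0.80 to 0.08, adjusted p = 0.284). Serpinb11 followed a like course with another array, at 10.36 to 10.61 in uninjured digits and 10.41, 9.87 and 9.98 in blastemas (-0.36, -0.68 to -0.04, adjusted p = 0.158). It passed without blastema array 1 (-0.52, adjusted p = 0.0228). Serpinb3a, a mouse counterpart of the squamous cell carcinoma antigens, differed by -0.73 (-1.45 to -0.02, adjusted p = 0.188), with blastema array 2 at 7.45 among uninjured values of 7.01 to 7.88. Serpinb13, an inhibitor of lysosomal cathepsins in keratinocytes, differed by -0.16 (-0.49 to 0.18, adjusted p = 0.554).

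The serpins known from leukocytes gave small differences at low levels. Serpinb1a, an inhibitor of neutrophil elastase, was at 5.80 to 6.09 in uninjured digits and 6.06, 5.98 and 6.29 in blastemas (0.16, 95% interval -0.09 to 0.40). Serpinb6a, which inhibits cathepsin G, differed by -0.21 (-0.47 to 0.05). Serpinb9, the inhibitor of granzyme B, lay at 5.596 to 5.75 in uninjured digits and 5.59 to 5.63 in blastemas, a difference of -0.05 (-0.20 to 0.09). None of these passed (adjusted p of 0.296 to 0.641). Of 9 leukocyte markers 6 rose, led by Fcer1g (1.32 ± 0.19, SE) and Cd53 (0.96 ± 0.23). Of 12 neutrophil markers and 9 cytotoxic lymphocyte markers 0 were called. At an unadjusted p under 0.05 by limma there were 1 and 2, against 5527 of all 22180 genes. In these lists 9 neutrophil and 6 cytotoxic lymphocyte markers had no group mean above the background mark, so their lack of calls carries little information. The call of Cd53 was kept only without blastema array 1 among the 7 omissions. The part of these cells in the serpin values was not tested.

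**Figure D3:**
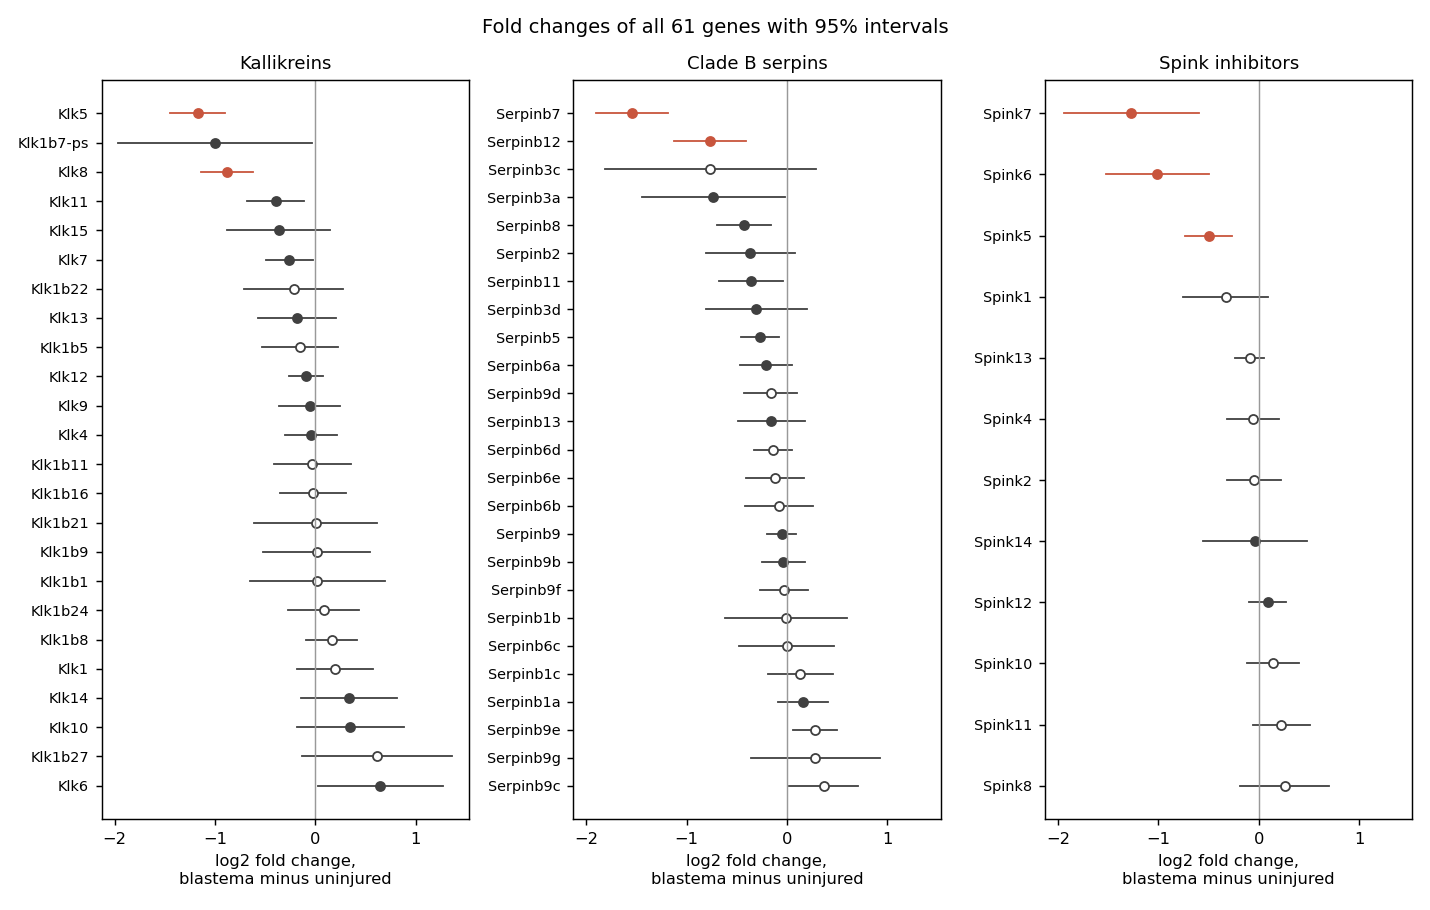
Log2 fold change of each of the 61 genes (blastema minus uninjured, 4 against 3 arrays) with its 95% interval, by family. Red marks the 7 genes called lower, grey genes were not called, and open circles mark the 30 genes with no group mean above the background mark. The called genes lie between -1.55 and -0.50, and no gene was called higher.

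The families sit in runs of neighbouring genes, and the RefSeq gene order of GRCm38.p6 was used to set neighbours side by side. The 23 kallikreins that the order table lists as protein-coding formed 1 run from Klk14 to Klk1. Its called genes were not adjacent. Klk8 (-0.88) lay between Klk9 (-0.06) and Klk7 (-0.26), and Klk5 (-1.17) between Klk6 (0.65) and Klk4 (-0.04). No difference between neighbours was tested here or in the other families.

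The clade B serpins formed 2 runs. In the run of 10 from Serpinb5 to Serpinb8, 2 were called lower and all 10 differences were below 0, with a median of -0.40, though that of Serpinb13 was above 0 in 1 of the 16 alternative settings. In the run of 15 from Serpinb1a to Serpinb6a, 0 were called, 10 differences were below 0 and the median was -0.03, and 11 of these 15 genes had no mean above the background mark, against 1 of 10 in the other run. The difference between the runs was not tested. Serpinb7 (-1.55) lay between Serpinb11 (-0.36) and Serpinb2 (-0.36), and Serpinb12 (-0.77) between Serpinb5 (-0.27) and Serpinb13 (-0.16). Among Spink genes, Spink6 (-1.01) lay between Spink14 (-0.04) and Spink12 (0.09), with Spink5 on the far side of Spink14, and Spink7 (-1.27) lay between Spink10 (0.14) and Spink13 (-0.09).

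**Figure D4:**
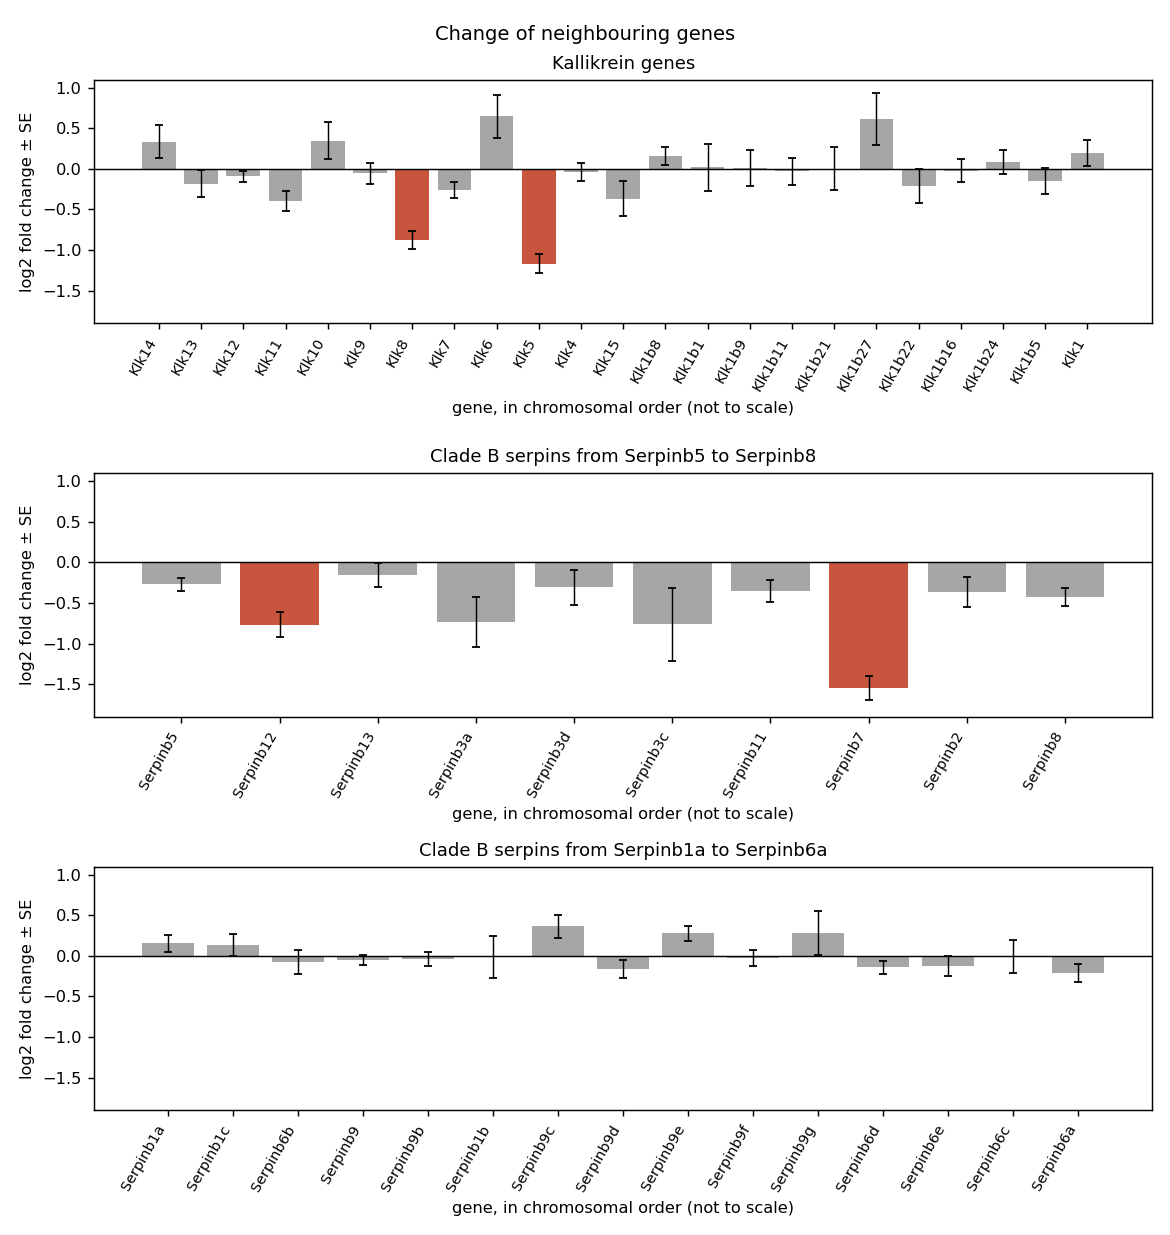
Log2 fold change (blastema minus uninjured) of neighbouring genes in chromosomal order, with error bars of 1 SE from the limma fit over 4 uninjured and 3 blastema arrays. Red bars are genes called lower. The 10 serpins from Serpinb5 to Serpinb8 all lie below 0, and the called kallikreins Klk8 and Klk5 have uncalled genes on both sides.

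The AP-1 letters TGANTCA were found upstream of 6 of the 47 members with a window, and all 6 were in the serpin run from Serpinb5 to Serpinb8, where 9 genes had a window. They were found in 0 of 14 genes of the other serpin run and 0 of 23 kallikreins. Some genes have more than 1 window. Counted by window, 7 of 57 member windows (12.3%) held them, against 6.75% of all 32851 windows. The 7 include overlapping windows of Serpinb2 that hold the same match. The motif was 1 of 5 searched, with results of these data known, and the difference between the runs was not tested. The matches are shown with up to 20 bases on each side, on the plus strand, in capitals, in the order of the genes.
Serpinb5: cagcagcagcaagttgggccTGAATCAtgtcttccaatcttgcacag
Serpinb12: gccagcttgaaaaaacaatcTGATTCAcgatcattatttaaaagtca
Serpinb11: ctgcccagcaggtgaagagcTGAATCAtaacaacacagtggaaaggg
Serpinb7: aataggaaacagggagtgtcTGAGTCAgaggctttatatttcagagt
Serpinb2: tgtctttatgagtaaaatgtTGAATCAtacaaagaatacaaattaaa
Serpinb8: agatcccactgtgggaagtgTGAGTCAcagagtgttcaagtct
The match began 45 bases before the start in Serpinb7 and before the first of 2 starts in Serpinb12, both called genes, while the window of the second Serpinb12 start held no match. The match began 23 bases before the start in Serpinb8, 76 in Serpinb11, 94 or 181 in Serpinb2, by which start is taken, and 140 in Serpinb5. Serpinb11 had another match 181 bases before its start. TGAGTCA was the form in Serpinb7 and Serpinb8. The genes of the same run that had a window and no match were Serpinb3a, Serpinb3d and Serpinb3c. The other motifs were found in 1 (AACCNGTT), 4 (TTGCNNAA), 8 (TATAAA) and 9 (GGGCGG) of the 47 genes, and in 1.79%, 9.56%, 12.4% and 32.7% of all windows. A match is a string of letters, and no binding was measured.

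Genes around these families were read from fixed lists. Of 16 genes listed as kallikrein activation partners, a list that also holds receptor genes, 15 were measured, without F2rl1. Of these 2 fell and 1, a receptor gene, rose (median -0.07). Prss8, which encodes the membrane protease prostasin, fell by 0.76 ± 0.11 (SE, adjusted p = 0.00832), and F2r, a thrombin receptor gene, rose by 1.03 ± 0.20 (adjusted p = 0.0194). St14, the gene of matriptase, differed by -0.30 (95% interval -0.58 to -0.03, adjusted p = 0.164) and is named after its value was seen. Of 14 desquamation substrates and cornified proteins, 6 fell and 0 rose (median -0.38), led by Flg2 (-1.49 ± 0.21, SE) and Lor. Of the 6, 5 had a mean above the background mark, and Dsg1c did not. Lor, Sbsn, Dsg1a and Flg were also counted among the fallen markers of differentiating keratinocytes, so the 2 lists are not separate. Dsg1a, which encodes a desmoglein cut by kallikreins, fell by 0.56 ± 0.14 (adjusted p = 0.0480), and Cdsn, which encodes corneodesmosin, differed by 0.02 (-0.20 to 0.25), both named after their values were seen. With 1 array omitted, the call of F2r was lost on omission of uninjured array 3 and of each of blastema arrays 2 and 3, and that of Dsg1a without any array except uninjured array 1.

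Of 22 genes listed as other protease inhibitors of the epidermis, 8 fell and 1 rose (median -0.17), and 6 had no mean above the background mark. The list also holds inhibitors of matrix metalloproteinases, and which cells gave the signal of its genes was not tested. The whey acidic protein gene Wfdc21 fell by 1.98 ± 0.19 (SE), and Timp1, an inhibitor of matrix metalloproteinases, rose by 2.55 ± 0.23. Among 29 serpins of other clades 2 rose, Serpinh1, a collagen chaperone (1.52 ± 0.17), and Serpinf1, which encodes PEDF (1.36 ± 0.13), and 1 fell, Serpina12, the vaspin gene (-0.63 ± 0.15), with a median of 0.0023. Of 21 listed proteases that clade B serpins are known to inhibit, or relatives of these, 20 were measured. Of these 5 rose and 2 fell (median 0.0029). Ctsk, the cathepsin of osteoclasts, rose by 3.32 ± 0.24 and Plat, the tissue plasminogen activator gene, by 1.88 ± 0.22, while Plau, the urokinase gene that PAI-2 inhibits, differed by 0.19 (-0.25 to 0.64) and is named after its value was seen. Of 11 markers of activated keratinocytes 3 rose, led by the defensin gene Defb4 (0.99 ± 0.17), and 1 fell, Ivl, which encodes involucrin (-0.58 ± 0.12), with a median of 0.55. Ivl was also counted among the fallen markers of differentiating keratinocytes, as was Casp14, 1 of the 2 fallen proteases above. S100a8 and S100a9, which were not called, stood in this list and in that of neutrophil markers, so these lists are not separate either. With 1 array omitted the call was kept in 1 of 7 cases for Serpina12 (lost with 6 of the arrays, all but blastema array 1), in 6 of 7 for Defb4 (lost without blastema array 3) and in 2 of 7 for Ivl (kept without uninjured array 2 or 3).

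**Figure D5:**
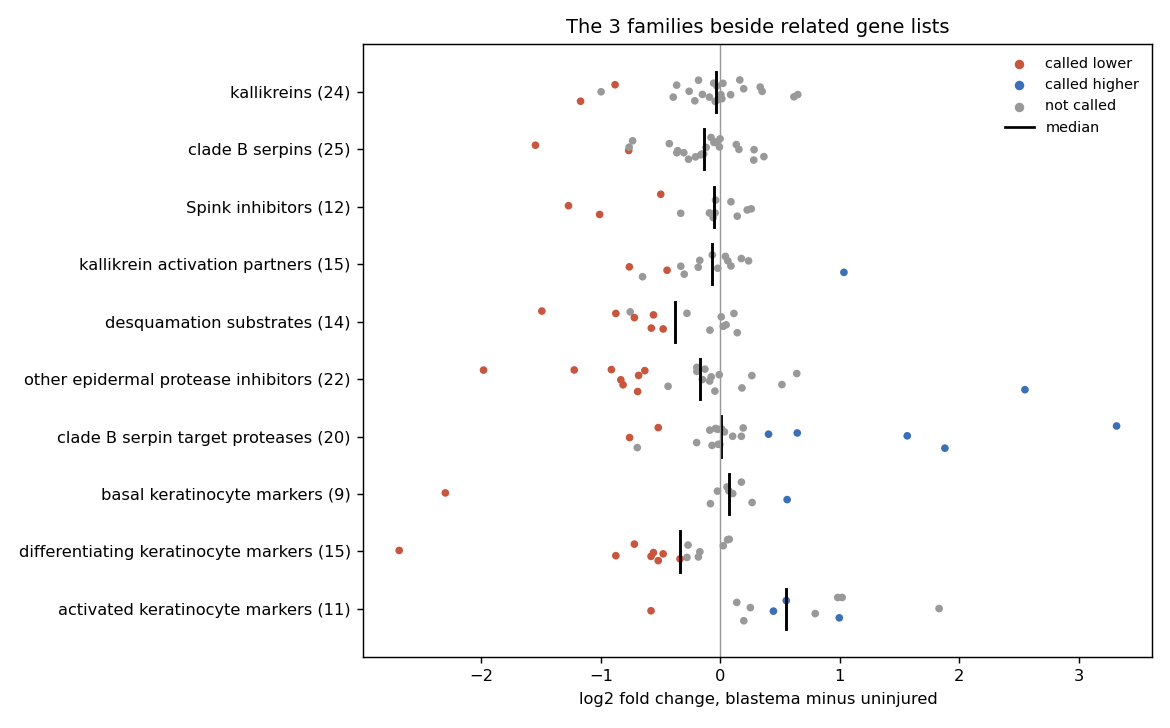
Log2 fold change (blastema minus uninjured, 4 against 3 arrays) of each gene of the 3 families and of 7 related lists, with the number of measured genes in brackets. Points are genes, jittered vertically, red where called lower, blue where called higher and grey where not called, and black lines are medians. No member of the 3 families is blue, and medians run from -0.38 for desquamation substrates to 0.55 for activated keratinocyte markers.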

How the data were processed

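Total RNA (400 ng per sample) was made into biotin-labelled cDNA for 1-colour arrays, per the labels. RMA in the R package oligo gave the deposited log2 levels, per the submitters' processing notes. For tool versions and the build of the array, "not given in the sources used here" applies. Of 41345 probe sets, 23521 had 1 symbol in the annotation, 1814 several and 16010 none. Those with several were left out, among them 1 shared by Serpinb10 and Serpinb2. The brightest probe set stood for each of 22180 genes.

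The groups were compared in limma 3.58.1 (R 4.3.3) by lmFit and eBayes over all 22180 genes with no covariate, two-sided, at a Benjamini-Hochberg adjusted p of 0.05. The procedure was tested on simulated data. The members, lists and tests were chosen with earlier results of these data known, and the background mark was chosen after the levels had been seen. Named genes were the called members, the 2 of each family with the largest change, a fixed set of skin genes, and the 2 called genes of each list with the largest change (3 for other serpins). The labels call the samples biological replicates, without saying whether each is 1 animal. Alternatives were a replicate block, leaving out the dimmest 30% of genes, averaging or separately testing probe sets, trended robust variances, array weights, median or reference gene scaling, and leaving out arrays.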

Additional observations from a re-analysis of the deposited data

Results flagged for a closer look

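In 8 of the 61 genes, 1 uninjured digit lay far from the other 3, by the 95% critical value of Dixon's test on its gap to the nearest of the others. That is 13.1% of the members, against 17.5% of all 22180 genes by the same measure, so the members' share is not above that of other genes. Chance alone gives about 1 in 20 groups where values are not tied. In 3 of the 8 genes (Klk12, Serpinb6e and Serpinb9b) some uninjured arrays held the same value, and in Klk12 the other 3 were all equal, so that any gap there fills the whole range. Uninjured array 1 was the distant one in 5 genes. It was the highest for Klk14, at 11.03 against 10.37 to 10.48 on the other uninjured arrays. It was the highest as well for Serpinb11 (10.61, others 10.36 to 10.40), Klk1b5 (5.80, others 5.16 to 5.21) and Klk12 (6.56, others all 6.44), and the lowest for Serpinb6e (3.27, others 3.64 to 3.70). Uninjured array 3 was the highest for Klk11, at 9.47 against 9.15 to 9.16, and for Serpinb9f, at 5.26 against 4.90 to 4.95. Uninjured array 4 was the lowest for Serpinb9b, at 5.74 against 5.96 to 5.97. None of these 8 genes was called between the groups over all arrays.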

How the results depend on the processing

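No setting tried called a member higher in the blastema. Klk5 and Serpinb7 passed in each of the 16 settings, and all 7 called genes were lower in each. Scaling to reference genes gave 30 lower members (8 kallikreins, 17 serpins, 5 Spink genes) and, over all genes, 600 higher and 10754 lower, a shift set by the rise of the reference genes. Higher genes then made up 5.284% of the calls, in place of 51.66%. Array weights gave 4 lower serpins. The cause of that change was not tested. With 1 array omitted, lower members numbered 3 to 9, lower kallikreins 2 to 3, lower serpins 1 to 3, lower Spink genes 0 to 3, and all genes 457 to 1286 higher and 365 to 1009 lower. The labels do not say whether the replicate numbers pair the samples, and pairing was not tested. Correlations of same-numbered deviations from the group means were 0.286, 0.151 and -0.0651. By these deviations, the uninjured arrays closest to blastema arrays 1, 2 and 3 were arrays 1, 2 and 4. A replicate block, which leaves uninjured array 4 without a partner, gave 3 lower members (1 kallikrein, 1 serpin, 1 Spink gene), without Klk8 (adjusted p = 0.054), Serpinb12 (0.0955), Spink5 (0.0929) and Spink7 (0.0831), and 295 higher and 304 lower genes. Klk5 minus Spink5 ran from -0.72 to -0.64 with 1 array omitted. Low signal limits the 30 dim members.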
